A study of Macaca mulatta with 12 samples.

Results

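The miRNAs described here are miR-128, miR-129, miR-132, miR-137, miR-138, miR-153 and miR-212, which are known from neurons. Their members were chosen by name, as the pre-miRNAs of the study's list named mml-mir-128, mml-mir-129, mml-mir-132, mml-mir-137, mml-mir-138, mml-mir-153 or mml-mir-212, with any letter or copy suffix. There were 11 such pre-miRNAs among the 832 that were read from the list, and they carry 20 names of mature miRNAs, which stand for 18 different mature sequences. In these data, 17 of the 18 mature sequences had reads in neural tissue, and 16 of the 18 were higher in both the occipital lobe and the spinal cord than in any other profile. This held for all 13 members that passed a filter on low values, against 43.7% of the 371 miRNAs that passed it. Beyond the neural tissues, miR-128 was found in every organ and was highest in both muscle profiles, miR-138 was highest in lung and kidney, and miR-132 and miR-212 were found in every organ at levels below those of miR-128-3p.

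Small RNAs of the rhesus macaque (Macaca mulatta) were sequenced in 12 profiles of 8 tissues. All profiles came from wild-type animals of 36 months of age without treatment, and the study drew on 2 animals. Each of kidney, muscle, small intestine and large intestine was profiled in 2 samples, and each of liver, lung, occipital lobe and spinal cord in 1. The labels do not say which animal a profile came from, so p-values measure only the spread between these profiles, which may be technical.

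A miRNA is cut from a hairpin, the pre-miRNA, whose 5p and 3p arms can each give a mature miRNA. It then guides the silencing of mRNAs that pair with its seed, the bases 2 to 8 from its 5′ end. miR-128 is abundant in mature neurons and restrains neuronal excitability. miR-132 and miR-212 lie side by side in the genome and are transcribed upon neuronal activity through the factor CREB. miR-138 acts in dendrites on the size of spines, miR-137 acts on the differentiation and maturation of neurons, miR-153 acts on the release of neurotransmitters and peptides, and miR-129 acts on the scaling of synapses.

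The most abundant arm of each miRNA, and the second copy or arm where a result turns on it, are shown here as listed by the study, 5′ to 3′, with the seed in capitals.
mml-miR-128a-3p: uCACAGUGaaccggucucuuuu
mml-miR-128b-3p: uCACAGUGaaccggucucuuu
mml-miR-128a-5p: cGGGGCCGuagcacugucugaga
mml-miR-128b-5p: gGGGGCCGauacacuguacgaga
mml-miR-129-1-5p: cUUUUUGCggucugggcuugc
mml-miR-129-2-3p: aAGCCCUUaccccaaaaagca
mml-miR-132-3p: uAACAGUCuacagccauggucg
mml-miR-212-3p: uAACAGUCuccagucagggcc
mml-miR-137-3p: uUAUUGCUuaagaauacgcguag
mml-miR-138-5p: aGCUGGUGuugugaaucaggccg
mml-miR-153-3p: uUGCAUAGucacaaaaguga

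As listed, mml-miR-128b-3p lacks the last base of mml-miR-128a-3p, and the hairpins differ at that base. Their 5p arms share a seed but differ inside the sequence. mml-miR-132-3p and mml-miR-212-3p share the seed AACAGUC and differ after it. The sequence shown as mml-miR-138-5p is shared by mml-mir-138 and mml-miR-138-1, and that shown as mml-miR-153-3p is shared by mml-mir-153-1 and mml-mir-153-2. None of the other mature miRNAs that could be read from the list shares a seed with a member. The entries that could not be read were not checked.

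RefSeq lists 10 of the 11 pre-miRNAs by name, mml-miR-138-1 being the exception, and gives their neighbours. MIR128A lies within R3HDM1, and MIR128B lies within ARPP21, which codes for a phosphoprotein of neurons. MIR153-1 and MIR153-2 lie within PTPRN and PTPRN2, which code for proteins of secretory vesicles. MIR132 and MIR212 neighbour each other within LOC144335217, which is listed as protein-coding, with OVCA2 and HIC1 as the neighbouring genes. MIR129-1 lies between SND1 and LEP, MIR129-2 between HSD17B12 and TTC17, MIR138 between NUP93 and SLC12A3, and MIR137 beside SNX7.

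The deposited files held from 22118095 to 25579064 valid reads per profile, of which 35.9% in liver to 68.4% in kidney 1 were assigned to listed mature miRNAs. Levels are given in RPTM, the reads per 10000000 valid reads, so a count of 0 allows a level of up to 1.17 to 1.36 RPTM, depending on the profile. The labels of the neural tissues, muscle and liver were checked against miRNAs known from these tissues. The neuronal miR-9 and miR-124a summed to 395069 RPTM in the occipital lobe, 265452 in the spinal cord and 173 to 995 elsewhere, with the highest of these in the intestines. The skeletal muscle miRNAs (miR-1, miR-133, miR-206, miR-208b and miR-499) summed to 267259 and 303245 RPTM in muscle and to at most 1860.2 in any other profile, and miR-122 of the liver reached 7739 RPTM in liver and at most 4.37 elsewhere. The miRNAs of intestinal epithelium (miR-192, miR-194 and miR-215) were not particular to the intestines. They summed to 452958 to 2064300 RPTM in the intestines, 1214340 in liver, and 255733 and 279119 in kidney. In a bulk tissue, more cells of a type and more RNA per cell cannot be told apart.

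The members together took 1.20% of the assigned reads in the occipital lobe, 0.637% in the spinal cord, 0.103% in each muscle profile and 0.00643% to 0.0187% in the others. The part of miR-128 in these reads differed between profiles. It was 140578 of 155202 reads in the lobe and 71833 of 88278 in the cord, but 881 of 1760 in kidney 1 and 974 of 1977 in lung. Without miR-128 the order differed: the share was 0.113% in the lobe, 0.119% in the cord and 0.00947% in lung. It was 0.00210% to 0.00502% in liver, kidney and intestine, and 0.000984% and 0.00101% in muscle 1 and muscle 2. Of the 18 mature sequences, 13 passed the filter on low values, a mean of at least 5 RPTM with a standard deviation of at least 1. The 5 others were mml-miR-137-3p, mml-miR-137-5p, mml-miR-138-3p, mml-miR-153-2-5p and mml-miR-212-5p. A member could pass this filter through its neural level alone, so the counts over the 13 are descriptions of members that were high somewhere.

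**Figure D1:**
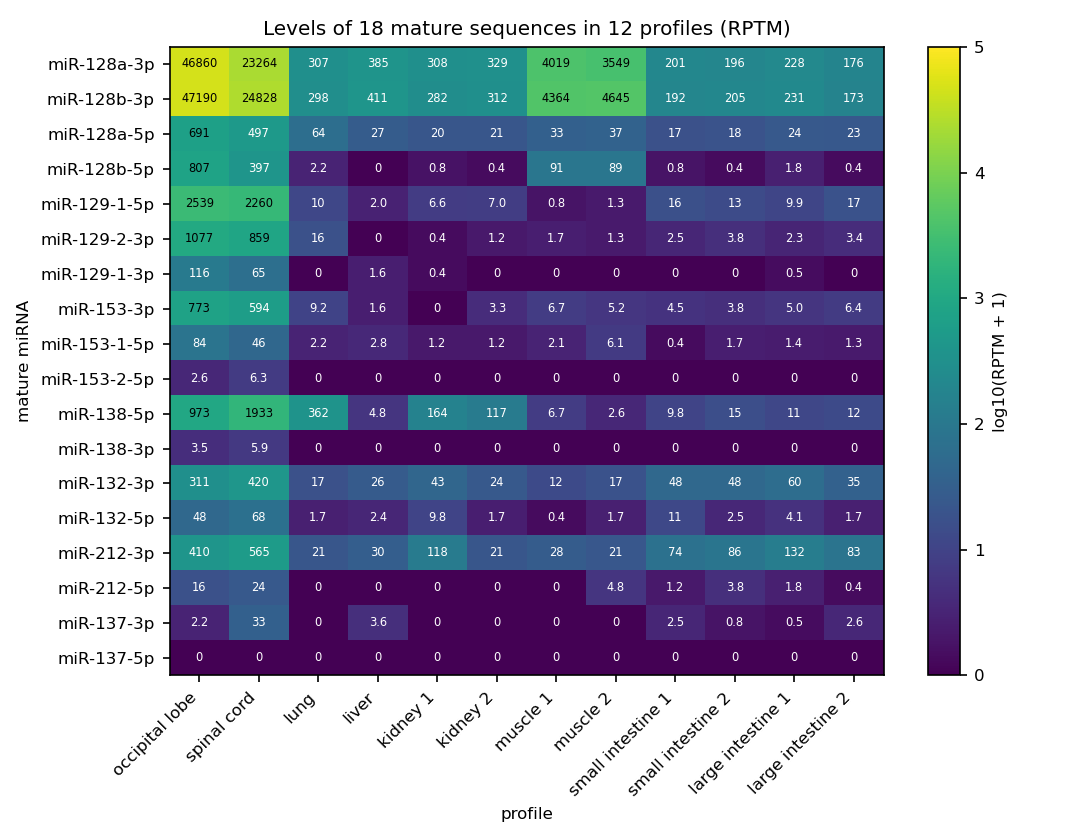
Levels of the 18 mature sequences (rows) in the 12 profiles (columns), printed in each cell in RPTM and coloured by log10(RPTM + 1). The occipital lobe and the spinal cord, on the left, both lie above all other profiles in 16 of the 18 rows. These include all 13 members that passed the filter, against 43.7% of the 371 miRNAs that passed it. The 2 muscle profiles are the next highest for miR-128-3p and mml-miR-128b-5p, and lung and kidney for miR-138-5p.

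miR-128 was the most abundant of the members. mml-miR-128b-3p was at 47189.8 RPTM in the occipital lobe and 24828 in the spinal cord, and from 173 through a median of 290.0 to 4645 RPTM in the 10 other profiles. mml-miR-128a-3p was at 46860.4 RPTM in the lobe and 23264 in the cord, and from 176 through 308 to 4019 elsewhere. For both, the neural profiles lay above all others, and the highest of the others was a muscle profile. Among all mature sequences, mml-miR-128b-3p ranked 16 in the lobe and 28 in the cord. These levels are not independent of each other, since 153009 of the 3p reads fitted both hairpins and were counted for each, against 46616 that fitted only mml-mir-128a and 43136 that fitted only mml-mir-128b.

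The 5p arms, which tell the copies apart, were far lower. mml-miR-128a-5p was at 691 RPTM in the lobe and 497 in the cord, against 16.8 through 23.5 to 63.8 in the others, with the highest in lung. mml-miR-128b-5p was at 807 RPTM in the lobe and 397 in the cord, against 0 through 0.800 to 90.9 in the others. The 90.9 and the 89.3 of mml-miR-128b-5p came from muscle 1 and muscle 2, and no other profile outside the neural tissues exceeded 2.19 RPTM.

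miR-129 was low in every organ outside neural tissue. mml-miR-129-1-5p was at 2539 RPTM in the occipital lobe and 2260.5 in the spinal cord, and from 0.834 through 8.49 to 17.0 elsewhere. mml-miR-129-2-3p was at 1077 and 859 RPTM, and from 0 through 1.96 to 16.2 elsewhere, with the highest in lung. mml-miR-129-1-3p was at 116 and 64.8 RPTM, and had 0 reads in 7 of the 10 other profiles and at most 1.61 RPTM, 4 reads in liver. All 3 were higher in both neural profiles than in any other by at least 40.2-fold, the smallest ratio being that of mml-miR-129-1-3p.

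miR-153 was also higher in both neural profiles than elsewhere. mml-miR-153-3p was at 773 RPTM in the lobe and 594 in the cord, and from 0 through 4.74 to 9.18 elsewhere. mml-miR-153-1-5p was at 83.9 and 45.6 RPTM, and from 0.409 through 1.52 to 6.10 elsewhere. mml-miR-153-2-5p had 6 reads in the lobe, 15 in the cord and 0 in the 10 other profiles. The groups did not overlap for any of the 3, although the last rests on few reads.

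miR-138 was high in the spinal cord and present in lung and kidney. mml-miR-138-5p was at 973 RPTM in the lobe and 1933 in the cord, and from 2.61 through 11.6 to 362 elsewhere. The 362 RPTM came from lung, and kidney 1 and kidney 2 followed with 164 and 117 RPTM, while the other 7 profiles stayed at 15.2 RPTM or below. mml-miR-138-3p, the listed 3p arm of mml-mir-138, had 8 reads in the lobe, 14 in the cord and 0 elsewhere.

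miR-132 and miR-212 were found in every organ. mml-miR-132-3p was at 311 RPTM in the lobe and 420.4 in the cord, and from 12.1 through 30.5 to 60.1 elsewhere. mml-miR-212-3p was at 409.8 RPTM in the lobe and 565 in the cord, and from 20.5 through 52.0 to 131.6 elsewhere. Large intestine 1 held the highest level outside the neural tissues for both. Their 5p arms were lower: mml-miR-132-5p was at 48.2 and 67.8 RPTM against at most 11.05, and mml-miR-212-5p at 16.1 and 24.3 RPTM against at most 4.79. The neural profiles lay above all others for each of the 4.

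miR-137 stood apart from the rest. mml-miR-137-3p had 5 reads in the occipital lobe, which is 2.17 RPTM, and 80 reads in the spinal cord, which is 33.5 RPTM. In the others it ranged from 0 to 3.63 RPTM, with 9 reads in liver, 6 in small intestine 1 and 6 in large intestine 2, so the lobe lay inside the range of the other organs. mml-miR-137-5p had 0 reads in all 12 profiles.

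The comparison between neural tissue and the other organs asks which miRNAs are enriched in neural tissue. The counts were compared with edgeR's quasi-likelihood test, in which the occipital lobe and the spinal cord formed 1 group and the reference was the mean of the 6 other organs. All 13 members that could be tested were higher in neural tissue at an adjusted p under 0.05, while 40.4% of all 371 tested miRNAs were called higher and 27.5% lower. None of the 13 was lower, with 0 at an unadjusted p under 0.05 in edgeR and 0 called lower in DESeq2. The median log2 fold change was 4.98 over the 13 members and 0.59 over all 371 miRNAs. Of a list of 50 other miRNA sequences known from neural tissue, 25 were tested, of which 24 were higher and 0 lower, with a median of 4.29. These sequences, too, could pass the filter through their neural level alone, and the list was chosen with earlier results of these data known. Their count and median are therefore descriptions.

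Fold changes over 6 on the log2 scale were found for miR-129, mml-miR-128b-5p and mml-miR-153-3p. They were 7.97 ± 0.42 (log2, SE; 2 against 10 profiles here and in the following values) for mml-miR-129-2-3p and 7.33 ± 0.31 for mml-miR-129-1-5p, at adjusted p of 4.18e-07 and 1.05e-07 in edgeR. The value was 7.48 ± 0.45 for mml-miR-128b-5p and 6.03 ± 0.56 for mml-miR-153-3p. The value of 7.88 ± 0.77 for mml-miR-129-1-3p depends on the prior count of the fit, since most other profiles had 0 reads. The abundant 3p arms of miR-128 rose by 4.99 ± 0.28 (mml-miR-128b-3p) and 4.98 ± 0.28 (mml-miR-128a-3p). mml-miR-138-5p rose by 4.51 ± 0.35, mml-miR-153-1-5p by 3.69 ± 0.56 and mml-miR-128a-5p by 2.99 ± 0.29. With identical reads only, mml-miR-128a-5p was at 0.88 with an adjusted p of 0.108 in edgeR, and mml-miR-129-2-3p rose by 5.95. This counting drops the commonest form of mml-miR-128a-5p, with 2900 of its 3450 reads. The smallest fold changes were those of mml-miR-132-5p with 2.95 ± 0.63, mml-miR-132-3p with 2.29 ± 0.31 and mml-miR-212-3p with 2.01 ± 0.42, at adjusted p of 0.00199, 0.000128 and 0.00177 in edgeR.

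**Figure D2:**
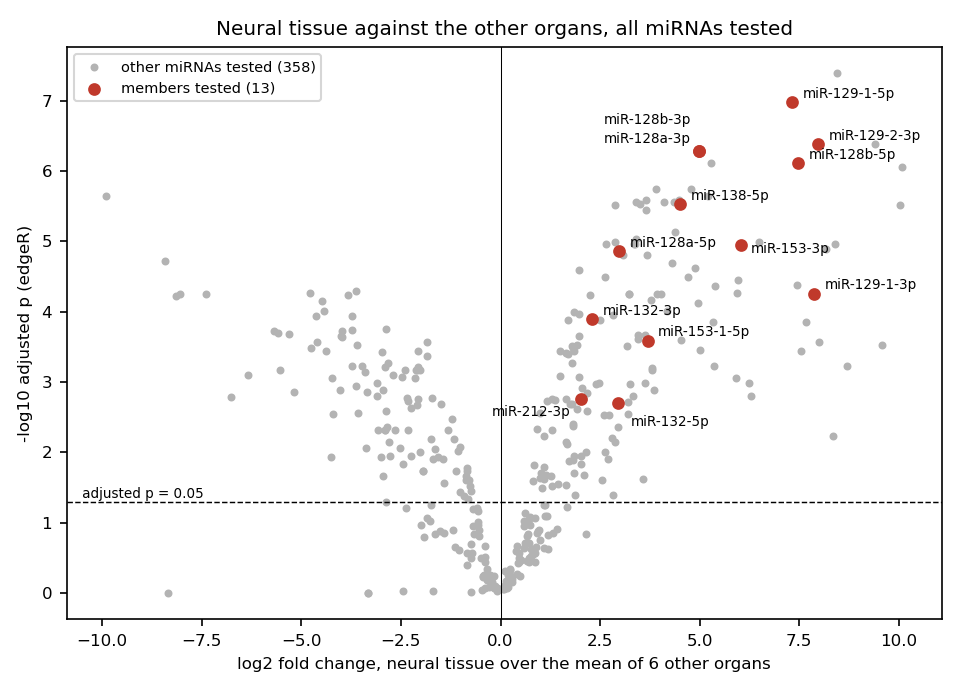
Log2 fold change of neural tissue over the mean of the 6 other organs (horizontal axis) against −log10 of the adjusted p of edgeR (vertical axis) for the 371 tested miRNAs, with the 13 tested members in red and the other 358 in grey. The members all lie to the right of 0 and above the dashed line at an adjusted p of 0.05, from 2.01 for mml-miR-212-3p to 7.97 for mml-miR-129-2-3p.

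The scale matters for these values. The TMM factors were 2.26 in the occipital lobe and 2.49 in the spinal cord, against 0.623 to 1.37 elsewhere, so the fold changes of edgeR are smaller than the ratios of RPTM. With valid reads alone as the scale, the median log2 fold change of all miRNAs moved from 0.59 to 1.97, 62.5% of them were called higher and 12.4% lower, and the 13 members were again higher. The fit takes the difference between the lobe and the cord as the spread of the neural group.

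Neural tissue was also set against the organs 1 at a time, which was decided after seeing the data. All 13 members were higher than in muscle, where 35.6% of all miRNAs were. Liver and lung have 1 profile each, so their tests take the spread from the other groups and assume that the lone profile varies like those. There were 12 higher than in liver (25.6% of all) and 12 than in lung (27%), and 11 each than in kidney (31.5%), small intestine (35.3%) and large intestine (34.5%). The exception in lung was mml-miR-138-5p, with a log2 fold change of 1.19 ± 0.64 and an adjusted p of 0.150 in edgeR. mml-miR-212-3p was an exception in all 3 of kidney and the intestines, with 1.21 ± 0.61 (kidney), 0.90 ± 0.61 (small) and 0.40 ± 0.60 (large) at adjusted p of 0.114, 0.234 and 0.597 in edgeR. mml-miR-132-3p missed the threshold against large intestine, with 1.16 ± 0.45 and an adjusted p of 0.0505 in edgeR, and mml-miR-132-5p missed it against kidney, small intestine and liver. With valid reads alone as the scale, all 13 were higher than in each of the 6 organs, against 59% of all miRNAs in kidney, 62.5% in large intestine, 41% in liver, 37.2% in lung, 46.9% in muscle and 61.5% in small intestine.

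Muscle was the organ nearest to neural tissue for miR-128. The log2 fold change of neural tissue over muscle was 1.70 ± 0.41 for mml-miR-128b-3p and 1.92 ± 0.42 for mml-miR-128a-3p, whereas over the 5 other organs it ranged from 5.07 to 6.14 for these 2 sequences. For mml-miR-128b-5p it was 1.45 ± 0.54 over muscle, at an adjusted p of 0.0368 in edgeR, and 7.29 or more elsewhere. mml-miR-128a-5p, from the other copy, showed no such step, with 2.79 ± 0.46 over muscle and 2.44 to 3.41 over the other organs. The 3p reads that fitted only mml-mir-128a were nonetheless more numerous in muscle than in the other non-neural profiles, as given below.

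The 4 organs with 2 profiles each could be compared with replicates. In these 8 profiles 8 members passed the filter, and 7 of them differed among the organs by edgeR's F test, while 59.8% of the 301 tested miRNAs did. The exception was mml-miR-128a-5p, with an adjusted p of 0.597 in edgeR. Its levels were 20.3 and 21.1 RPTM in kidney, 32.5 and 37.04 in muscle, 16.8 and 18.1 in small intestine, and 24.4 and 22.5 in large intestine. The call of mml-miR-212-3p was the only one that changed: its adjusted p of 0.0230 in edgeR became 0.0509 without large intestine 1, 0.0689 without muscle 1, 0.119 without muscle 2 and 0.106 with valid reads alone.

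Muscle was high for miR-128. mml-miR-128b-3p was at 4364 and 4645 RPTM in muscle, a mean of 4504 ± 199 (SD, n = 2), against 282 and 312 in kidney, 192.3 and 205 in small intestine, and 231 and 173 in large intestine. The 2 muscle profiles thus lay far above the 6 others, which were all between 173 and 312. The log2 fold change of muscle was 3.40 ± 0.34 over kidney, 3.85 ± 0.34 over small intestine and 3.70 ± 0.34 over large intestine, at adjusted p of at most 8.51e-05 in edgeR. For mml-miR-128b-5p the corresponding values were 6.63 ± 0.72, 6.43 ± 0.72 and 5.53 ± 0.68, where kidney and intestine had at most 4 reads in a profile. Of all miRNAs, 44.5%, 50.8% and 48.5% differed between muscle and these organs. The neuronal miR-9 and miR-124a summed to 298 and 214 RPTM in muscle, inside the range of 173 to 995 of the other non-neural profiles.

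Muscle was low for the other called members. mml-miR-132-3p was at 12.1 and 17.0 RPTM in muscle, against 43.0 and 24.0 in kidney, 48.3 and 47.7 in small intestine, and 60.1 and 34.9 in large intestine. The muscle profiles were below all 6 others, and the log2 fold change of muscle was -1.69 ± 0.44 against kidney and -2.49 ± 0.45 against large intestine, with adjusted p of 0.0128 and 0.00176 in edgeR. mml-miR-212-3p was at 27.5 and 21.4 RPTM in muscle, 73.6 and 86.5 in small intestine, and 131.6 and 82.9 in large intestine. In kidney it was at 118 and 21.1 RPTM, a mean of 69.8 ± 68.9 (SD, n = 2), so kidney 2 overlapped with muscle. mml-miR-129-1-5p was at 0.834 and 1.31 RPTM in muscle, 2 and 3 reads, against 6.65 to 17.0 in kidney and intestine.

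Kidney was high for mml-miR-138-5p, at 164 and 117 RPTM with a mean of 140.4 ± 33.1 (SD, n = 2). It was at 6.67 and 2.61 RPTM in muscle, 9.82 and 15.2 in small intestine, and 10.8 and 12.3 in large intestine. Both kidney profiles lay above the 6 others, and the log2 fold change over kidney was -5.35 ± 0.58 in muscle, -3.32 ± 0.52 in small intestine and -3.31 ± 0.52 in large intestine, with adjusted p of at most 0.00196 in edgeR. Of all miRNAs, 32.6% differed between small intestine and kidney and 27.9% between large intestine and kidney. Between small and large intestine, 0 of the 8 members were called in edgeR, against 2.99% of all miRNAs, and 0 had an unadjusted p under 0.05.

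The occipital lobe and the spinal cord had 1 profile each, so their difference was not tested, and the intervals given here cover counting error only. The intervals take each read as independent. Reads that carry no molecular identifier may be copies of 1 molecule, so the intervals may be too narrow. All listed arms of miR-128, mml-miR-129-1-5p, mml-miR-129-1-3p, mml-miR-153-3p and mml-miR-153-1-5p were higher in the lobe, whereas both arms of miR-132, miR-212 and miR-138 and mml-miR-137-3p were higher in the cord. The intervals of mml-miR-212-5p, mml-miR-138-3p and mml-miR-153-2-5p, with few reads, included 1. The direction of mml-miR-129-2-3p depended on the counting: it was 1.25-fold higher in the lobe (1.18 to 1.33), within the 0.69 on the log2(RPTM + 1) scale found in pairs of profiles, and its ratio of lobe over cord was 0.811 with identical reads only. mml-miR-128a-3p was 2.01-fold higher in the lobe (95% interval 1.99 to 2.04), mml-miR-128b-5p 2.04-fold (1.88 to 2.20) and mml-miR-128a-5p 1.39-fold (1.29 to 1.501). mml-miR-129-1-5p was 1.12-fold higher in the lobe (1.08 to 1.17) and mml-miR-153-3p 1.30-fold (1.21 to 1.40), but with only reads identical to the listed sequence the latter was 2.89-fold. The ratios of 1.12 and 1.30 are smaller than the differences found within pairs of profiles of an organ, which reached 0.72 and 2.11 on the log2(RPTM + 1) scale, against 0.17 and 0.38 between lobe and cord on the log2 scale. The 2.11 of mml-miR-153-3p came from kidney, with 0 and 8 reads, and the median over its pairs was 0.30, below the 0.38.

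mml-miR-138-5p was 1.99-fold higher in the cord (1.89 to 2.09), mml-miR-132-3p 1.35-fold (1.23 to 1.49) and mml-miR-212-3p 1.38-fold (1.27 to 1.499). The pairs of profiles of an organ differed by up to 1.09, 0.82 and 2.44 in these on the log2(RPTM + 1) scale, and the differences between cord and lobe were smaller than these. The 1.09 of mml-miR-138-5p came from muscle, with 16 and 6 reads. The median over its pairs was 0.53, and its log2 ratio of lobe over cord, -0.99, was larger in size than this median. With identical reads only, mml-miR-132-3p was 2.82-fold higher in the cord, or 1.49 on the log2 scale. The differences within pairs were not computed for identical reads, so the 1.49 cannot be set against the 0.82. mml-miR-137-3p was 15.4-fold higher in the cord (6.33 to 48.7), or 8.66-fold with identical reads only, and it was the only member that differed by at least 4-fold. Among all selected miRNAs, 16.4% were at least 4-fold higher in the cord and 1.89% in the lobe, and the median log2 ratio of lobe over cord was -0.34. None of the 13 members that passed the filter reached 4-fold in either direction.

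**Figure D3:**
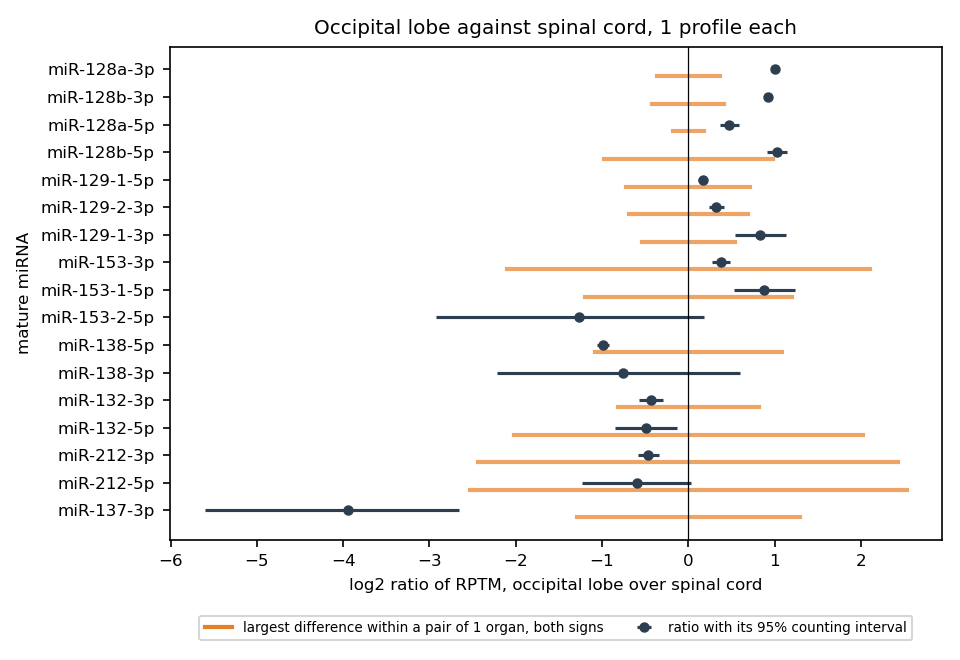
Log2 ratio of RPTM between the occipital lobe and the spinal cord for the 17 mature sequences with reads in both (points, with 95% counting intervals). The orange lines give the largest difference on the log2(RPTM + 1) scale within the pairs of profiles of kidney, muscle, small intestine and large intestine, drawn with both signs. The 3p arms of miR-128 lie to the right of their orange lines, and mml-miR-137-3p, at -3.94, lies far to the left of its line.

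The reads also tell which copy of a gene was used. The 5p arms of mml-mir-128a and mml-mir-128b differ inside the sequence, so that each 5p read belongs to 1 copy. mml-mir-128b gave 53.9% of them in the occipital lobe (Wilson 95% interval 52.2 to 55.5), 44.4% in the spinal cord (42.3 to 46.5), and 73.6% and 70.7% in muscle 1 and muscle 2. In the 8 other profiles it gave 0% to 6.90%, or at most 5 reads against 41 to 146 reads of mml-mir-128a. Thus 5p reads of mml-mir-128b, which lies within ARPP21, were found mainly in neural tissue and muscle, and 5p reads of mml-mir-128a in all organs. The shares depend on the ends of the reads: with both ends within 1 nucleotide of the listed sequence, which drops the commonest form of mml-miR-128a-5p, they became 89.9%, 86.5%, 88.1% and 88.4%.

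In the 3p arm, too, neural tissue and muscle had the highest shares of this copy. mml-mir-128b gave 44.2% of the copy-specific 3p reads in the lobe, 49.9% in the cord, 54.4% and 63.5% in muscle, and 13.7% to 35.4% in the other 8 profiles. The 3p reads specific to mml-mir-128a were also most numerous in neural tissue and muscle. They numbered 28547 in the lobe, 10341 in the cord, 3684 and 3180 in muscle, and 72 to 161 in the other 8 profiles. Here the copies are told apart by the last base alone, so a base added to the end of a shared read would be counted for a copy. The part of such added bases in these shares was not tested. Added bases that match no hairpin were on 10.7% (mml-miR-128a-3p, muscle 1) to 25.1% (mml-miR-128b-3p, large intestine 1) of the reads of these arms, such reads included. An added C was on 3.25% (mml-miR-128a-3p, kidney 1) to 17.5% (mml-miR-128b-3p, large intestine 1).

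**Figure D4:**
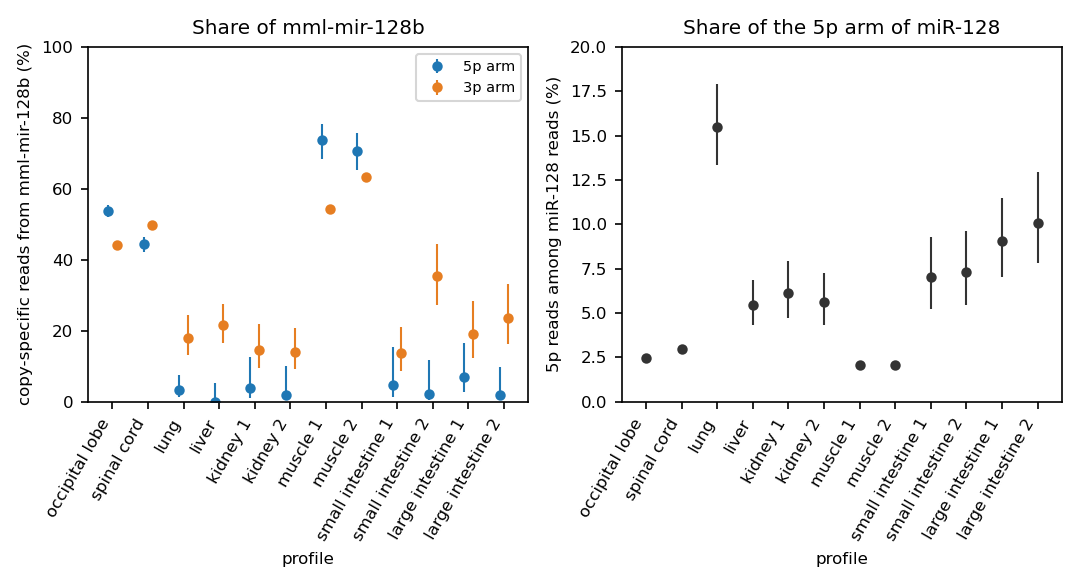
Left, share of mml-mir-128b among the copy-specific reads of miR-128 (percent) in the 12 profiles, for the 5p arm (blue) and the 3p arm (orange). Right, share of 5p reads among all miR-128 reads (percent). Bars are Wilson 95% intervals of counting error; in the neural tissues and muscle the share of mml-mir-128b is at 44.2% or above and that of the 5p arm at 2.97% or below.

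The share of the 5p arm differed among organs as well. It was 2.05% of the miR-128 reads in both muscle profiles, 2.45% in the lobe and 2.97% in the cord, and 5.45% to 15.5% in the others, with the highest in lung. Between neural tissue and the 10 other profiles the difference in log2(3p + 1) − log2(5p + 1) was 1.23, with p = 0.182 in an exact permutation test (two-sided), which cannot give less than 0.0303. With muscle among the 10, the groups overlapped. When only reads identical to the listed sequences were counted, the difference was also 1.23 but the exact permutation test gave p = 0.0303. This counting drops the commonest form of mml-miR-128a-5p. It kept 118 of 1591 reads of this arm in the lobe and 108 of 1188 in the cord, against 448 of 3450 over all profiles. The result with identical reads thus also depends on the ends of the reads. For miR-132 and miR-212 the differences were -0.62 and -1.05 with exact permutation p of 0.303 and 0.394, and the adjusted p over the 3 miRNAs was 0.394 for each. The other 4 had under 20 reads in some profiles and were not tested.

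miR-129 had many reads on both listed arms. Its 5p arm took 68.0% of its reads in the lobe (Wilson 95% interval 67.0 to 69.0) and 71.0% in the cord (70.0 to 72.0). The 5p reads fit both copies, but the 3p reads tell them apart, and mml-mir-129-2 gave 89.6% of the copy-specific 3p reads in the lobe and 92.6% in the cord. In lung all 37 reads of the 3p arm came from mml-mir-129-2, against 24 of the 5p arm. For miR-153, the 5p arm took 10.1% of the reads in the lobe and 8.04% in the cord, and mml-mir-153-2 gave 3.02% and 12.1% of the 5p reads.

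For miR-138, the 3p arm came from the copy for which the study lists no 3p miRNA. The 3p arm of mml-mir-138 had 24 reads in all profiles together, whereas that of mml-miR-138-1 had 3367. Its commonest reads, with bases 2 to 8 in capitals, are shown because they have no listed name.
3p arm of mml-miR-138-1, 2817 reads: gCUACUUCacaacaccagggc
3p arm of mml-miR-138-1, 484 reads: cGGCUACUucacaacaccagggc

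The 2 forms end at the same base and start 2 nucleotides apart, so that their bases 2 to 8 differ. This arm was at 236 RPTM in the occipital lobe and 813 in the spinal cord, 201 in lung, and 69.2 and 60.8 in the 2 kidney profiles, and at 9.78 or below in the 7 others. The order of these organs was that of mml-miR-138-5p, with lung and kidney above the rest. The reads of this arm numbered 29.6% of both arms in the cord and 19.5% in the lobe, 35.7% in lung, and 29.7% and 34.2% in kidney. In the 7 others the share ranged from 14.3% in muscle 2 to 46.7% in large intestine 1, on few reads. The arms were counted by unlike rules. The 3p reads had no limit on their ends, whereas the 5p reads lay within 2 nucleotides of the listed ends and came from both copies.

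**Figure D5:**
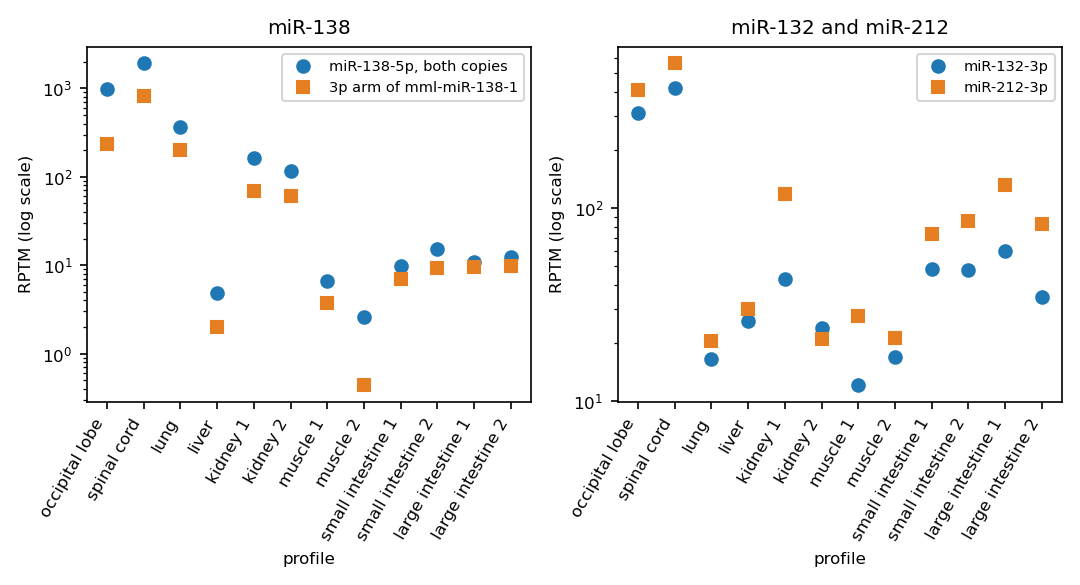
Levels in RPTM on a log scale in the 12 profiles. Left, miR-138-5p of both copies (blue circles) and the 3p arm of mml-miR-138-1 (orange squares), which are high in the neural tissues, lung and kidney and at 15.2 RPTM or below elsewhere. Right, mml-miR-132-3p (blue circles) and mml-miR-212-3p (orange squares), whose 2 kidney profiles differ more for mml-miR-212-3p (118 and 21.1 RPTM) than for mml-miR-132-3p (43.0 and 24.0 RPTM).

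The ends of the reads differed from the listed sequences in some members. For mml-miR-153-1-5p, 96.9% of the 350 reads started 1 nucleotide upstream of the listed start, and for mml-miR-153-2-5p all 21 did, which moves the seed by 1 base.
mml-miR-153-1-5p, as listed: uCAUUUUUgugaucugcagcu
mml-miR-153-1-5p, commonest read: gUCAUUUUugugaucugcagcu

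For mml-miR-153-3p, the commonest read kept the listed start but was 2 nucleotides longer, with 2800 of 3305 reads. The reads of mml-miR-138-3p all started 2 nucleotides upstream of the listed start. For mml-miR-132-5p, 17.9% of the reads started 1 nucleotide upstream. For the other members at least 89.4% of the reads had the listed start, so that their seeds were those listed. The commonest form of mml-miR-128a-5p lacked the last 2 listed bases and made up 84.1% of its reads, whereas 72.8% of those of mml-miR-128b-5p had the listed length.

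The miRNAs whose levels followed those of a member most closely were found by Pearson's r of log2(RPTM + 1) over the 12 profiles, given as a description, since these profiles share libraries and the neural tissues set most of the range. For mml-miR-128b-3p they were mml-miR-1296-5p (0.963), mml-miR-340-3p (0.958) and mml-miR-628-5p (0.955). For mml-miR-129-1-5p they were mml-miR-9-5p (0.969), mml-miR-9-3p (0.966) and mml-miR-1224-5p (0.959), and for mml-miR-132-3p mml-miR-1224-5p (0.960), mml-miR-4446-3p (0.952) and mml-miR-9-5p (0.940). For mml-miR-212-3p the same 3 followed, mml-miR-4446-3p (0.916), mml-miR-1224-5p (0.909) and mml-miR-9-5p (0.871). For mml-miR-138-5p they were mml-miR-218-5p (0.956), mml-miR-874-3p (0.951) and mml-miR-135a-5p (0.948), for mml-miR-153-3p mml-miR-769-5p (0.966), mml-miR-181d-5p (0.963) and mml-miR-488-3p (0.956), and for mml-miR-137-3p mml-miR-490-5p (0.882), mml-miR-541-3p (0.875) and mml-miR-656-3p (0.852). Among the members themselves, mml-miR-132-3p and mml-miR-212-3p had an r of 0.952, and mml-miR-128b-3p and mml-miR-138-5p one of 0.460.

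Changes inside the mature sequences were rare. No position of a member had a share of changed reads of 5% or more in a profile with at least 10 changed reads. The largest shares were those of A14C in mml-miR-153-3p in the spinal cord, with 22 of 1441 reads (1.53%, Wilson 95% interval 1.01 to 2.30), and of C12U in the same miRNA with 1.28% in the lobe and 1.25% in the cord. Positions are counted from 1 at the 5′ end of the listed sequence.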

How the data were processed

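Small RNA libraries of 12 profiles were sequenced on an Illumina instrument. The deposited values are unnormalized read counts, 1 for each distinct sequence. To obtain them, the authors discarded reads of low quality, trimmed the adapter, dropped short sequences and collapsed identical ones.

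Pre-miRNAs and mature sequences were taken from the study's list, of which 832 pre-miRNAs could be read; 7 listed mature sequences were not found in their hairpins and were left out. A read was assigned when it matched a pre-miRNA exactly and both ends lay within 2 nucleotides of a mature sequence, and a read that fitted several mature sequences counted for each. Levels are RPTM over valid reads. Only miRNAs that averaged 5 RPTM or more with a standard deviation of 1 or more were tested (371 of 1219 sequences). Tests used edgeR 4.0.16 in R 4.3.3 with TMM factors, two-sided, with Benjamini-Hochberg adjustment over all tested miRNAs. The SE was derived from the F statistic. DESeq2 1.42.0 was an alternative. Arms were compared with exact permutation tests over profiles in Python 3.11.15 with scipy 1.17.1. The tests were checked on simulated data: of 74 miRNAs changed 8-fold among 371 in the neural comparison, 100% were recovered with 3 false calls, and of 60 among 301 in the 4 organs, 100% with 0 false calls. Apart from the changed miRNAs, the simulation gave every organ the same means, and all miRNAs shared 1 dispersion. The real organs differ more, so it checks the working of the fit and not these calls.

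Depth was 22118095 to 25579064 reads per profile, and intervals (95%) and the limits for a count of 0 (3 reads) cover counting error only. Gene neighbours and names come from RefSeq (assembly T2T-MMU8v2.0), with 10 of 11 pre-miRNAs matched; the build of the study, Mmul_8.0.1, differs, so no coordinates are given. All mature sequences of the members are named, and for the most abundant one of each number the 3 selected miRNAs with the highest correlation. The members and lists were chosen with earlier results of these data known. Groups came from the tissue labels. Alternatives were other scales, filters, assignments, groups, a replicate block and leaving out 1 profile at a time. Neural tissue against each organ and all reads of a hairpin were added after seeing the data. Alignment to the genome was not repeated.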

Additional observations from a re-analysis of the deposited data

Results flagged for a closer look

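Reads outside the listed mature sequences appeared in 2 places. The 3p arm of mml-miR-138-1, which has no listed mature sequence, held 3367 reads over the 12 profiles, and each profile had at least 1, from 1 in muscle 2 to 1943 in the spinal cord. The limit that a count of 0 allows is 3 reads.

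mml-miR-132-3p carried an added U that does not match its hairpin. Reads with 1 such U made up 54.4% of its reads in kidney 1, 32.7% in the occipital lobe, 36.5% in the spinal cord, and from 24.4% to 54.0% in the 9 other profiles. These reads were not counted in its levels. The commonest, with the added base in capitals, had 1549 reads, more than the 1264 of the listed sequence.
mml-miR-132-3p with an added base: uaacagucuacagccauggucgU
mml-miR-212-3p, of the same seed, carried such a U on 1.37% to 5.88% of its reads. With up to 2 added bases allowed, mml-miR-132-3p was again higher in neural tissue in edgeR.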

How the results depend on the processing

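The count of 13 members higher in neural tissue was 13 in each fit that left out 1 profile, and ranged from 10 (of 11 tested, identical reads only) to 17 (of 17, no filter) in the other fits. The count of members lower was 0 throughout. Of all miRNAs tested, 101 of 262 were higher with identical reads only and 234 of 598 with no filter. Of the 8 members compared among 4 organs, 7 differed, and 6 to 7 did when 1 profile was left out. With the replicate number as a block it was again 7. The correlations of the deviations of same-numbered profiles ranged from -0.207 to 0.183 over 6 pairs of organs. With so few profiles per organ, these cannot show whether the numbers pair the profiles by animal. No paired analysis was possible for neural tissue because the occipital lobe and the spinal cord carry no replicate number.

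Over all miRNAs, 150 of 371 were higher and 102 lower in neural tissue. With valid reads only, 232 of 371 were higher and 46 lower. With no filter beyond 10 reads more miRNAs were tested, and 234 of 598 were higher. Among 4 organs 180 differed, 117 with identical reads only, where fewer could be tested, and 158 to 170 when 1 profile was left out.

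For the arms, the difference of miR-128 was 1.23 with identical reads only (adjusted p = 0.0303, exact permutation test, since it was the only one tested), and leaving out 1 profile gave 1.06 to 1.41 for miR-128, -0.75 to -0.53 for miR-132 and -1.45 to -0.76 for miR-212. The share of mml-mir-128b with ends within 1 nucleotide was 89.9% (lobe), 86.5% (cord), 88.1% (muscle 1) and 88.4% (muscle 2) of 5p reads, and 43.4% (lobe), 49.1% (cord) and 53.3% (muscle 1) of 3p reads. The ratio of lobe over cord of mml-miR-129-2-3p turned from 1.25 to 0.811 with identical reads only. Of the fold changes of members in neural tissue, mml-miR-128a-5p alone lost its call, with a log2 fold change of 0.88 and an adjusted p of 0.108 in edgeR with identical reads only. That counting drops the commonest form of mml-miR-128a-5p, here and in the arm difference of miR-128. Some fold changes moved by over 1.5 times with 1 profile: without liver to 6.49 (mml-miR-128b-5p), 6.95 (mml-miR-129-2-3p) and 8.54 (mml-miR-129-1-3p), without lung to 8.78 (mml-miR-129-2-3p) and 5.37 (mml-miR-138-5p), without kidney 2 to 6.99 (mml-miR-153-3p) and without the spinal cord to 5.59 (mml-miR-128a-3p), all on the log2 scale. mml-miR-138-3p and mml-miR-153-2-5p, with 0 reads outside neural tissue, are limited by depth there.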

Other observations

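Added bases at the 3′ end differed between the members. mml-miR-129-1-5p carried an added A on 15.5% of its reads in the occipital lobe and 11.3% in the spinal cord. mml-miR-137-3p carried an added C on 31.3% of its 131 reads in the spinal cord, reads with added bases included.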
